A study of Mus musculus with 2 samples.

Results

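The melanocyte pigment genes are a set of 10 genes (Dct, Tyrp1, Tyr, Pmel, Mlana, Slc45a2, Oca2, Sox10, Mitf and Kit) that encode the enzymes, structural proteins, transporters and regulators of pigment cells. They were chosen by name, and every non-control probe with a RefSeq accession mapping to one of them was taken. In this way 8 of the 10 genes had at least 1 probe, with 11 probes and 38 spots on each array, among 18206 genes that could be named. Mlana and Kit had no probe named through a RefSeq accession and were not analysed here.

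Melanocytes are neural crest cells that make melanin inside melanosomes and hand these organelles to keratinocytes. In the furred skin of mice most of them sit in hair follicles, where pigment is made during hair growth. Melanin synthesis starts with tyrosinase and is shaped by a pair of related enzymes, the fibrils of the melanosome are built from the Pmel protein, and the transcription factors Mitf and Sox10 drive the genes of the pathway.

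Peeled mouse epidermis in the steady state was hybridised to 2 arrays, 1 for each genotype. Control RNA came from Nfkbiz flox/flox epidermis, and knockout RNA from Nfkbiz flox/flox; K5-cre epidermis. Both groups carry the floxed Nfkbiz alleles, and in the knockout Cre is made under control of the keratin 5 promoter of basal keratinocytes. Nfkbiz encodes IκBζ, a nuclear IκB protein. The strain, coat colour, age, sex, body site, hair cycle stage and number of mice were not given in the sources used here.

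With 1 array per group there was no replicate check and no test, so a gene was called by the size of its difference, at 2-fold. Signals are linear intensities, and log2 differences are knockout minus control after each array was divided by its 75th percentile, which was 205 for control and 239 for knockout. The ± after a log2 difference is a standard error from the scanner software, which covers technical error and leaves out the spread between mice. A probe was taken as measured on an array when more than 1 in 2 of its spots were well above background there. The lowest such signals were 12.7 (control) and 12.1 (knockout). The targeted gene, Nfkbiz, was read by 1 probe, with signals of 3100 in control and 1760 in knockout (log2 difference -1.04 ± 0.20). Where that probe lies relative to the floxed exons was not given, so its value does not check the deletion.

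Of the 8 pigment genes with a probe, 4 were measured on both arrays, 2 on the control array alone and 2 on neither. Dct, Tyrp1 and Pmel were 4.36-fold, 4.13-fold and 4.08-fold lower on the knockout array, and Slc45a2 was lower by a bound of at least 3.39-fold. Sox10 had nearly the same signal on both arrays. No pigment gene was higher by 2-fold. Thus, of the 4 genes with a measured difference, 3 were at least 2-fold lower, as were 4.41% of the 12395 such genes in the whole data, and 0 were at least 2-fold higher, as were 3.03%. All 3 were more than 4-fold lower, as were 0.702% of genes. The median over the 4 genes was -2.04, and the median over all measured genes was -0.04. The set was chosen with these differences known, so the counts describe it and do not test it. In a bulk sample, fewer melanocytes and less RNA per melanocyte cannot be told apart.

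The enzymes come first. Dct encodes dopachrome tautomerase, which rearranges dopachrome in the eumelanin pathway and is also an early marker of melanoblasts. Its brighter probe gave signals of 1470 in control and 393 in knockout, a log2 difference of -2.12 ± 0.20. The second probe was dimmer, with 317 and 78.6, and differed by -2.23 ± 0.22. Both probes therefore placed the knockout array lower, and their differences lay within the error of each other. Of the genes measured on both arrays, 65 (0.524%), Dct included, were as far down or further.

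Tyrp1 encodes tyrosinase-related protein 1, a melanosomal enzyme of brown and black pigment. Its single probe was printed in 10 spots on each array. The lowest, median and highest spot signals were 73.6, 86.3 and 93.0 in control and 22.0, 24.1 and 27.2 in knockout. The spots of the arrays did not overlap, and all 10 were lower on the knockout array. The probe mean differed by -2.05 ± 0.28, and over the 10 pairs of spots at the same place on each array the difference was -2.05 ± 0.10 (SD, n = 10 spots of 1 hybridisation, which are not biological replicates). As far down or further were 81 genes (0.653%).

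Tyr encodes tyrosinase, the enzyme that starts melanin synthesis. Its 10 spots were not well above background on either array, so Tyr has no fold here. Of these spots, 1 lay close to a spot that the scanner software had marked as non-uniform. Spot signals ran from 8.50 to 18.8 with a median of 11.4 on the control array, and from 6.63 to 15.9 with a median of 9.17 on the knockout array. Those ranges overlap, and 7 of 10 spots were lower on the knockout array before scaling and all 10 after it. All 10 spots on both arrays were marked by the scanner software as positive and significant over background, a looser mark than well above background.

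The promoter windows of these 3 related enzyme genes are shown because a core E-box of the kind that Mitf binds in pigment genes lies in each of them. The letters are from RefSeq on GRCm38.p6 and run from 250 bases before to 50 bases after the annotated start site, 5′ to 3′ on the gene's strand. Capitals mark CATGTG on either strand, which reads CACATG where it lies on the opposite strand. The windows are chr14:118052197-118052496 on the minus strand for Dct, chr4:80833963-80834262 on the plus strand for Tyrp1 and chr7:87493463-87493762 on the minus strand for Tyr.
Dct: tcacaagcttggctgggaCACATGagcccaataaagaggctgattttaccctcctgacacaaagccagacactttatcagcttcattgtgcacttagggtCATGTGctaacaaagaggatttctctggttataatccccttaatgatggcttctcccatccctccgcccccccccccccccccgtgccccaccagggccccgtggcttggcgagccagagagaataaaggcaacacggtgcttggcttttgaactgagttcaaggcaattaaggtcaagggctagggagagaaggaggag
Tyrp1: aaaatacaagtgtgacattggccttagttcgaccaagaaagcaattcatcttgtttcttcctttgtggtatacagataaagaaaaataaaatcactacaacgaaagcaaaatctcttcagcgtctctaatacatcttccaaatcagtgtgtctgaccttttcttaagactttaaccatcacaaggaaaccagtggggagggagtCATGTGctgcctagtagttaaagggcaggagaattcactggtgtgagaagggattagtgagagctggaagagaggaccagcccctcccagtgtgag
Tyr: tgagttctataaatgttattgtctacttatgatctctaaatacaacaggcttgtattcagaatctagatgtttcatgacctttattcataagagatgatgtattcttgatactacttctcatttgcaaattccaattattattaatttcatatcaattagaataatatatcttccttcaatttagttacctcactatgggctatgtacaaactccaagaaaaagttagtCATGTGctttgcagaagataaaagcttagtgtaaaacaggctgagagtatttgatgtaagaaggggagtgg

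Dct held 2 such matches, with first bases 232 and 150 before the start site, Tyrp1 held 1 at 46 before it, and Tyr 1 at 21 before it. Of the 10 pigment genes, 6 had a window in the RefSeq table (9 windows in all), and CATGTG was found in 4 of these 6 genes, the fourth being Oca2 with a match on the opposite strand 186 before the start. Among all genes of the table, 15.9% hold CATGTG on at least 1 strand of a window. The longer TCATGTG, which contains the shorter motif, was in Dct, Tyrp1 and Tyr and in 4.31% of all genes. The palindrome CACGTG, another E-box, was in none of the 6 genes and in 8.09% of all. ACAAAG, a core of the kind that Sox proteins bind, was in Dct, Tyrp1 and Oca2 and in 21.0% of all genes. The windows of Mitf and Kit held none of these motifs. A match is a run of letters and not a measured binding site.

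**Figure D1:**
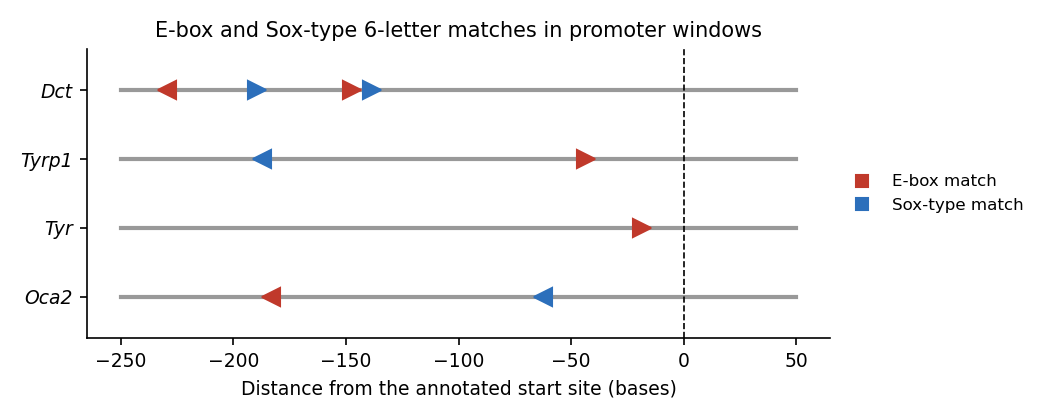
Positions of CATGTG (E-box, red) and ACAAAG (Sox-type, blue) in the promoter windows of Dct, Tyrp1, Tyr and Oca2, by distance in bases from the annotated start site, with arrowheads giving the strand. The E-box match nearest to a start site is that of Tyr, at 21 bases before it.

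Pmel encodes the amyloid protein that forms the fibrils on which melanin is laid down. It had signals of 172 in control and 49.2 in knockout, a log2 difference of -2.03 ± 0.22. The knockout array was the lower one, and 84 genes (0.678%) were as far down or further. The 26 measured neighbouring spots within 3 rows and 3 columns had a median difference of -0.40, against -0.08 around the brighter Dct probe and -0.03 around the spots of Tyrp1. The part of this local shift in the Pmel value was not tested.

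Dct, Tyrp1 and Pmel differed from each other by at most 0.10 in log2 difference, less than the error of any of those gaps (0.30 for Dct against Pmel). Their signals on the control array spanned a 17.3-fold range. At similar signal levels, within 2-fold of each gene's mean over the arrays, the share of genes at least 2-fold lower was 3.37% around Dct, 7.06% around Tyrp1 and 6.18% around Pmel. The shares at least 2-fold higher were 2.46%, 4.42% and 5.51%.

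The transporters of the melanosome membrane were dimmer. Slc45a2 encodes a transporter that keeps the melanosome lumen suited to tyrosinase. It had signals of 35.2 in control and 9.23 in knockout, where it was not well above background. Against the lowest signal well above background on the knockout array it was at least 3.39-fold lower. Of the 490 genes measured on the control array alone, 38% had a bound of at least 2-fold, so a bound of this kind was common. Oca2, the gene of a melanosomal membrane transporter called the P protein, had signals of 21.4 and 6.71. Its spot was well above background on neither array, and it has no fold here.

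Of the transcription factors, Sox10 was measured on both arrays and Mitf on one. Sox10 encodes a neural crest factor that activates Mitf and Dct and is also made by Schwann cells. Its brighter probe had signals of 45.7 and 44.6, a log2 difference of -0.26 ± 0.29 that turned to 0.06 under median scaling and 0.07 under normexp background correction. Its second probe, with 3.12 and 2.97, was not well above background. The gap between Dct and Sox10 was -1.87 ± 0.35 in log2 difference, that between Tyrp1 and Sox10 -1.79 ± 0.40 and that between Pmel and Sox10 -1.77 ± 0.36. Each gap was larger than its technical error, and no replicate stands behind it.

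Mitf encodes the factor that switches on the pigment enzymes, and other isoforms of it act in mast cells and osteoclasts. Its brighter probe was printed in 10 spots. The lowest, median and highest signals were 11.7, 16.0 and 18.8 in control and 4.94, 7.16 and 9.92 in knockout. The spots did not overlap, and all 10 were lower on the knockout array. On the control array 7 of 10 spots were well above background and on the knockout array none, so Mitf has only a bound, at least 1.52-fold lower. Its second probe was well above background on neither array.

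**Figure D2:**
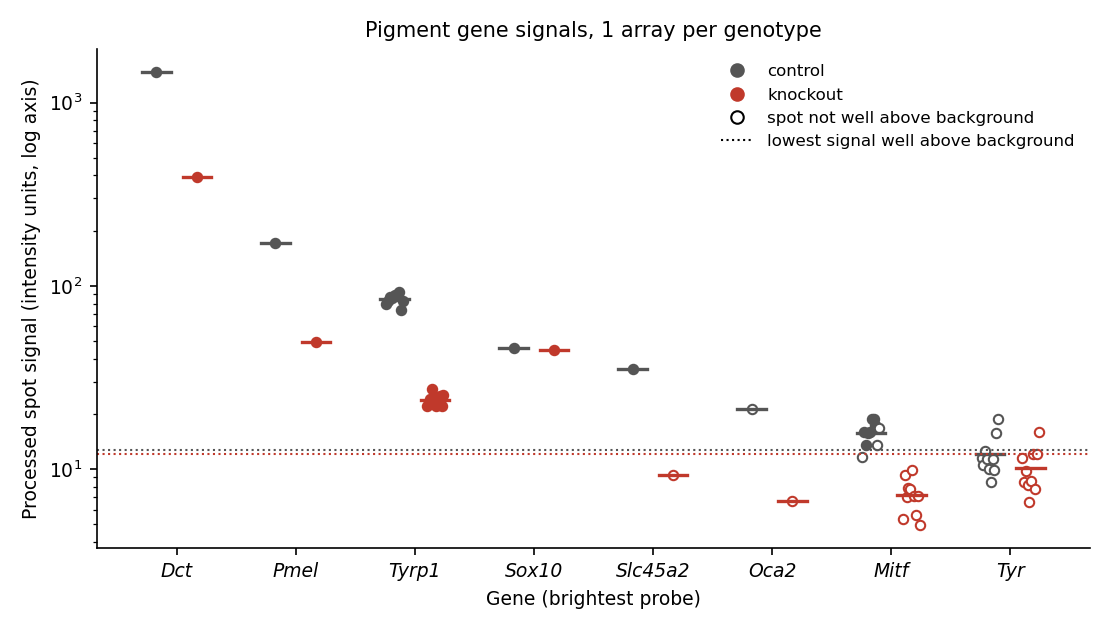
Processed signal of every spot of the brightest probe of the 8 pigment genes, on a log axis, for control (grey) and knockout (red). Open circles are spots not well above background, bars are means, and dotted lines are the lowest signals well above background (12.7 and 12.1). Dct, Pmel and Tyrp1 are lower on the knockout array, and Sox10 lies at 45.7 and 44.6.

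**Figure D3:**
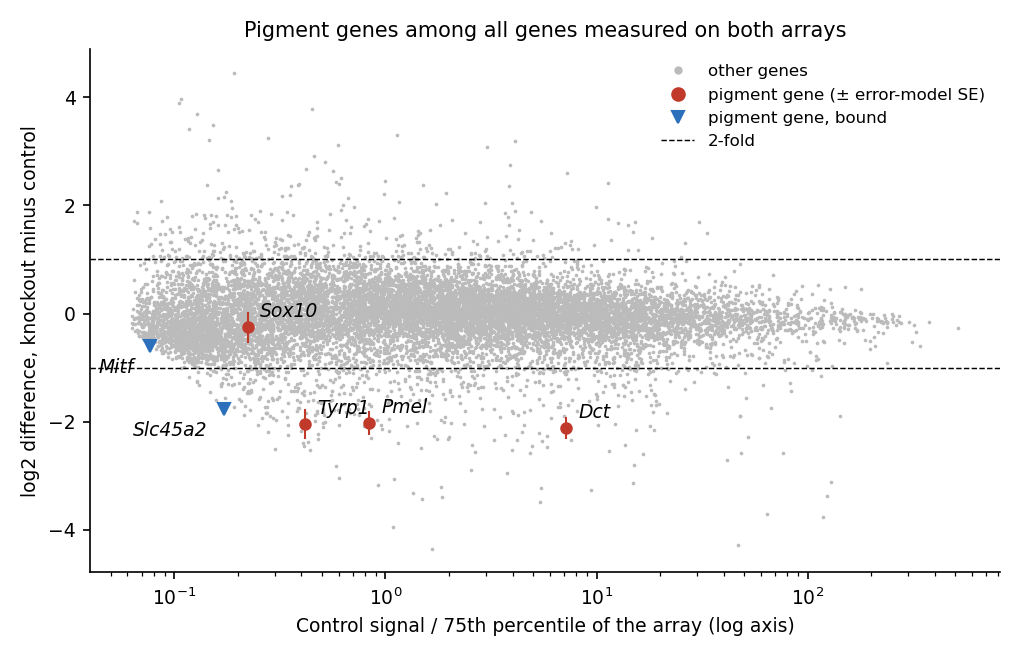
Log2 difference, knockout minus control, against scaled control signal (log axis) for the 12395 genes measured on both arrays, with pigment genes in red (± error-model SE) and bounds as blue triangles. Dct, Tyrp1 and Pmel lie between -2.12 and -2.03 at control signals of 1470, 84.9 and 172.

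Across all genes, 546 were at least 2-fold lower and 375 at least 2-fold higher, so 40.7% of genes past 2-fold were higher. With median scaling, which moves every gene up by 0.32, that share was 76.3%. Dct, Tyrp1 and Pmel were still at -1.81, -1.73 and -1.71, and relative to the median gene they were at -2.08, -2.01 and -1.99 under either scaling. Normexp correction with an offset of 50, run on median spot signals in place of processed signals, gave -1.99 for Dct, -1.26 for Pmel and -0.77 for Tyrp1. Tyrp1 thus fell short of 2-fold there, and so did the bound of Slc45a2. The offset is added to every corrected signal, and the processed control signals were 1470 for Dct, 84.9 for Tyrp1 and 35.2 for Slc45a2. The cause was not tested. In the authors' deposited table of log2 values, Dct, Tyrp1 and Pmel differed by -2.13, -2.06 and -2.04.

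**Figure D4:**
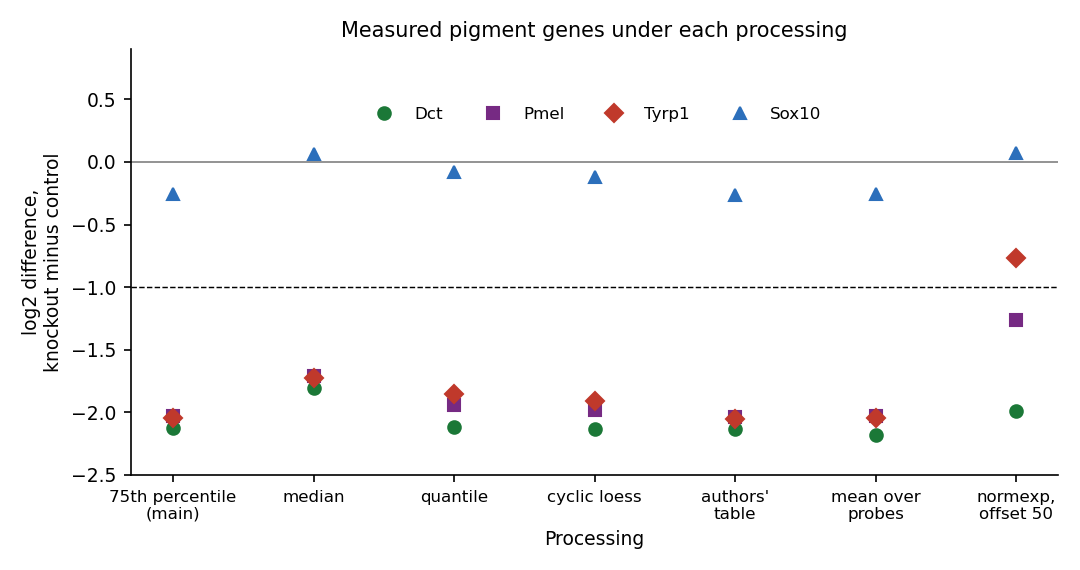
Log2 difference, knockout minus control, of the 4 pigment genes measured on both arrays under each processing, with the dashed line at 2-fold. Dct runs from -2.18 to -1.81, while Tyrp1 is at -0.77 and Pmel at -1.26 under normexp.

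Other genes of pigment cells were taken from a list of 20, all with a probe. Of the 11 measured on both arrays, 5 were lower by 2-fold or more and 0 were higher, and the median was -0.83. Trpm1, a cation channel gene of melanocytes, had signals of 152 and 52.3 (-1.76 ± 0.22). Tpcn2, which encodes a channel of endolysosomes and melanosomes, differed by -1.36 ± 0.23. Ptgds, the gene of a prostaglandin D synthase that melanocytes and other cells make, differed by -1.35 ± 0.23, and Gpnmb, a melanosomal glycoprotein gene also active in macrophages, by -1.10 ± 0.21. Rab38, named after its value was seen, encodes a GTPase that brings enzymes to melanosomes. It differed by -1.03 ± 0.20, and its probe lay close to a spot that the scanner software had marked as non-uniform.

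Slc24a5, the gene of a melanosomal ion exchanger, was measured on the control array alone, with 31.0 against 10.6, and was at least 2.99-fold lower. The other measured members lay within 2-fold. The endothelin receptor gene Ednrb differed by 0.12 ± 0.30, with another probe at -0.77. Mc1r, the melanocortin receptor gene, was dim on both arrays with signals of 4.77 and 12.0. Its probe also lay close to a spot marked as non-uniform. For this list, 3 of 11 genes were 2-fold lower with median scaling and 0 of 11 under normexp, with medians of -0.51 and -0.67.

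Genes of melanosome biogenesis, the trafficking complexes that many cell types use to make lysosome-related organelles, showed no such pattern. Of 19 measured on both arrays, 0 were 2-fold lower and 1 was higher, with a median of 0.05. Atp7a, which loads copper into tyrosinase and other enzymes, was the higher one, at 911 and 2350 (1.15 ± 0.20). The subunit genes Hps5, Hps1 and Vps33a differed by 0.93, 0.65 and 0.64. Genes of melanosome transport, a list broader than the motor complex that carries melanosomes to the cell edge, had 0 of 7 measured past 2-fold in either direction. Exoc4, Rab27a, Sytl2 and Mreg differed by 0.57, 0.40, 0.29 and -0.21. The motor gene Myo5a, named after its value was seen, differed by -0.07.

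Signals that act on melanocytes from their surroundings were mixed, with 0 of 9 measured genes 2-fold lower, 1 higher and a median of 0.09. Kitl, which encodes the ligand of the Kit receptor that melanoblasts need, had signals of 146 and 85.7 and a log2 difference of -0.99 ± 0.21, just short of 2-fold. Some of its spots lay near such a marked spot. Edn1, an endothelin gene, was the higher one, with 252 and 707 (1.27 ± 0.20). Bmp4 and the attractin gene Atrn differed by 0.68 and 0.40, and a second Atrn probe by -0.09. Sfrp2, a secreted Wnt modulator gene, was at least 3.17-fold lower, with a control signal of 32.9. Edn3 was dim on both arrays, at 7.18 and 7.34, and no probe was named for Asip.

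Cell types that share single pigment genes were set beside them. Of the mast cell list, 3 of 11 genes with a probe were measured on both arrays and 0 were past 2-fold. The sum of their unscaled signals was 415 in control and 480 in knockout, of which Mrgprb2 made up 367 and 439. The defining markers Cpa3 and Tpsb2 were not well above background on either. Cma1, a mast cell chymase gene, was at -0.91, Mcpt4 at 0.10 and Mrgprb2 at 0.04. Of the Schwann cell and nerve list, 7 genes were measured on both arrays, with 1 lower, 1 higher and a median of -0.28 that was 0.04 under median scaling. Gfra3 was at -1.54, S100b at 1.83, Mbp at -0.44 (with other probes at 1.05 and 0.02) and Mag at -0.35.

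Genes of the growing hair bulb and of the hair germ and bulge, where follicle melanocytes and their stem cells sit, also had lower members. In the bulb list 5 of 12 measured genes were 2-fold lower and 0 higher (median -0.75), with Krt27 at -1.52, Tchh at -1.36, Krt71 at -1.28 and Foxq1 at -1.11. The list did not move as a whole, since only 8 of the 12 were below 0. Dlx3, Foxn1, Bambi and Krt31, named after their values were seen, were at 0.57, 0.31, 0.26 and 0.10. Lef1, read on the control array alone, had signals of 28.1 and 14. It was 2.34-fold lower against its own dim knockout signal, which is not a lower limit. Only 2 of 12 were 2-fold lower with median scaling. In the hair germ and bulge list 3 of 9 were lower and 0 higher (median -0.93), with Plet1 at -3.12, Lhx2 at -2.07, Cd34 at -1.42 and Sox9 at -0.94. Other probes of Sox9 were at -2.48 and -1.16, and the one used lay close to a spot marked as non-uniform. The count was 4 with the mean over probes, and also without probes near non-uniform spots. All 9 measured genes were below 0, but not by a like amount. Krt15, named after its value was seen, was at -0.14 with signals of 45600 and 48200. Nfatc1, named in the same way, was at -0.44 with another probe at 0.41. Lgr5, also read on the control array alone, had signals of 48.3 and 12.4. It was 4.54-fold lower against its own dim knockout signal, again not a lower limit. The part of follicle content in the pigment gene values was not tested.

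Most skeletal muscle and red blood cell markers were also lower on the knockout array. Muscle genes were at least 2-fold lower in 6 of 7 measured (median -2.02), with summed signals of 1580 and 469, and Myl1, Acta1, Tnnc2 and Tnni2 were at -4.35, -3.18, -2.32 and -2.02. The measured muscle gene within 2-fold was Mylpf, named after its value was seen. It was at -0.04, with signals of 176 and 200. Ckm and Myh4 were lower by bounds of at least 2.62-fold and 4.54-fold. Red blood cell genes were lower in 4 of 4 (median -3.32), with summed signals of 18372 and 2133, and Hbb-bt, Alas2, Hba-a1 and Slc4a1 were at -4.29, -3.94, -2.71 and -1.11. Of the 7 endothelial genes only Vwf was measured on both arrays, at -2.40, with its probe close to a spot marked as non-uniform. Emcn, measured in control alone, was at least 5.36-fold lower. Tek (4.60 and 19.2) and Esam (13.8 and 16.2) were measured in knockout alone, with the higher signal there. Whether tissue was carried over with the peeled epidermis was not tested, and neither was any part of it in the pigment gene values.

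Dermal fibroblast genes had 0 of 6 past 2-fold (median -0.23, and 0.09 under median scaling), with Dcn at -0.73 and Lum at -0.39. Langerhans cell genes had 1 of 8 higher, Cd207 at 1.65, and a median of 0.46 (2 higher and 0.78 under median scaling). Epcam and Mfge8, named after their values were seen, were below 0, at -0.38 and -0.14. Epidermal T-cell genes had 1 of 8 higher, Itgae at 1.07, and a median of 0.52 (3 higher and 0.84 under median scaling, and 0 higher under normexp). Thy1, named after its value was seen, was at -0.26 with another probe at -1.23, and the probe used lay close to a spot marked as non-uniform. Without probes near such spots, 1 gene of this list was 2-fold lower. Keratinocyte genes, the defining markers of the labelled tissue, had 0 of 13 past 2-fold, with a median of -0.16 that was 0.16 under median scaling. Krt5 had signals of 52200 and 54400, Krt14 48500 and 47800, Krt1 26300 and 28800 and Krt10 76900 and 80200. The furthest apart were Itga6, an integrin gene of basal cells, at -0.98, and Sfn, at -0.85 with another probe at -1.07, followed by Dsg1a at 0.41 and Cdh1 at -0.35. The 12 reference genes ran from -0.28 to 0.34.

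**Figure D5:**
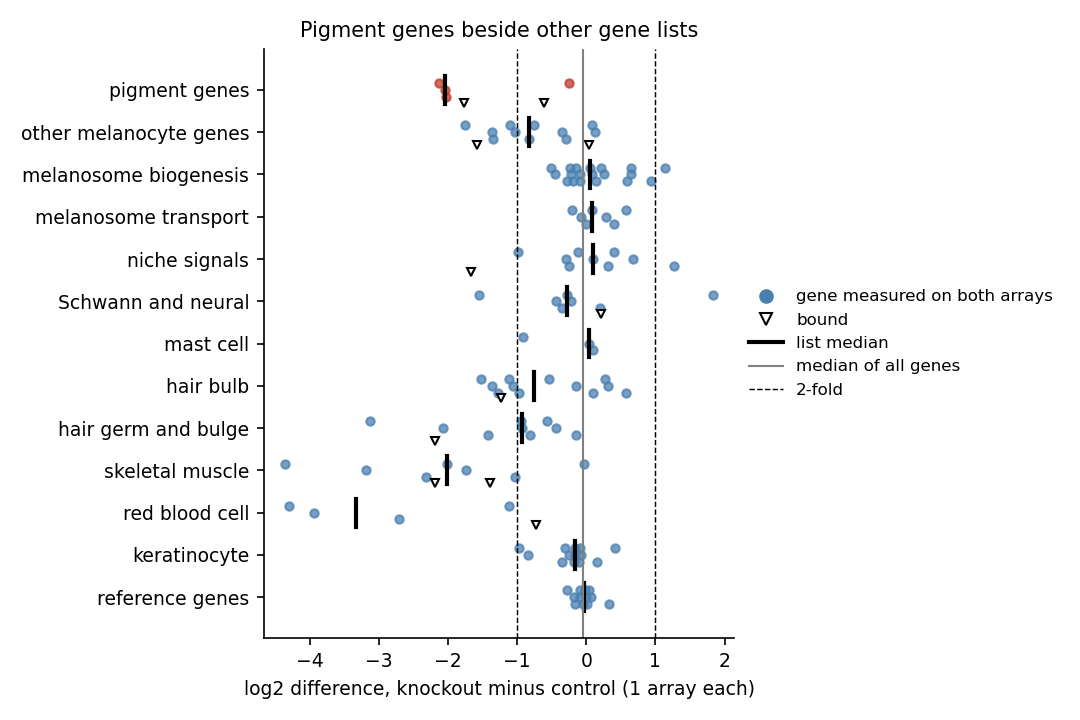
Log2 difference, knockout minus control, of each gene measured on both arrays, by gene list, with list medians as black bars, bounds as open triangles and 2-fold as dashed lines. Pigment genes have a median of -2.04, other melanocyte genes -0.83, melanosome biogenesis genes 0.05 and reference genes -0.03.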

How the data were processed

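Gene expression in peeled epidermis was measured on 2 one-colour arrays of 1 slide and 1 scan day, per the file headers. The authors quantified them with Agilent Feature Extraction 10.7.3.1, and the deposited spot values are linear intensity, background-subtracted and detrended within each array. A second deposited table holds the authors' log2 values, centred per probe over the arrays. Set against the scanner values over all probes, its genotype difference had r = 1.00 (Pearson), a slope of 1.00 and a median offset of -0.01, and its control and knockout columns had medians of 0.14 and -0.14.

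Outlier-marked spots on either array were dropped, the remaining spots were averaged per probe, and each array was divided by the 75th percentile of its non-control spots. Probes were named through RefSeq accessions of GRCm38.p6, used for names only, which named 26662 of 41134 probes (64.8%). The probe with the highest mean scaled log2 signal stood for a gene. A bound compares the measured signal with the dim array's lowest signal well above background, or with the dim probe itself where that was higher. In that last case it is a ratio to a dim signal and not a lower limit. No probe was saturated, and 56.2% and 56.3% of probes were well above background on the control and knockout arrays. The number of arrays limits the precision.

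The members and lists were chosen with earlier results of these data known. Named genes were all members, Nfkbiz, fixed defining markers, and from each list up to 4 genes with the largest difference and those with a bound of at least 2-fold; some genes that this rule names are not reported here. Alternatives used limma 3.58.1 in R 4.3.3, and the rest pandas 2.3.3, numpy 2.4.6 and matplotlib 3.10.9 in Python 3.11.15. Normexp was run on median spot signals. The calling code was tested on simulated data.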

Additional observations from a re-analysis of the deposited data

How the results depend on the processing

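No paired analysis was possible because there is a single array for each genotype. The 11 alternatives were other scalings, normexp, the mean over probes, the authors' table, leaving out probes near non-uniform spots, other filters on dim probes and thresholds of 1.5-fold and 3-fold. The count of pigment genes at least 2-fold lower on both arrays (3) was 5 when being measured on 1 array was enough and 6 with no filter on background, where dim genes enter with their own signals. With bounds included (4) it was 2 under normexp, and the cause was not tested. The median over pigment genes (-2.04) was -1.72 under median scaling and -1.01 under normexp. Counts over all genes (546 lower, 375 higher) were 229 and 177 under normexp, 295 and 952 under median scaling, 1636 and 1254 at 1.5-fold, 188 and 105 at 3-fold, 823 and 565 when 1 measured array was enough, and 1422 and 667 without a filter. Of 28 values of single pigment genes under alternatives, 21 stayed within their error and 7 moved further, all under median scaling or normexp, and no value past 2-fold changed sign. The medians of 5 of 16 comparison lists took both signs. Low signal over background limits Tyr, Oca2, Mitf and Slc45a2.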

Other observations

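The share of genes at least 2-fold lower on the knockout array was 5.02% among 1075 measured genes with CATGTG in a promoter window and 4.13% among 8871 without it, with median log2 differences of -0.07 and -0.03. For TCATGTG the shares were 5.36% of 280 and 4.19% of 9666. CACGTG went the other way, with 4.01% of 1148 and 4.25% of 8798. For ACAAAG they were 4.48% of 1674 and 4.17% of 8272, with both medians at -0.04. These values describe 1 array per genotype and were not tested.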
